A study of Mus musculus with 2 samples.

Results

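The 9 genes described here encode the colony-stimulating factors, their receptors and the related FLT3 pair: the ligands Csf1, Csf2, Csf3 and Flt3l, and the receptors Csf1r, Csf2ra, Csf2rb, Csf3r and Flt3. They were chosen by symbol, all 9 of 9 were found among the 32285 genes of the deposited matrices, and they are described in each cell class and library. The tumours grew in livers of C57BL/6 mice. Their live CD45+ cells (CD45 is the pan-leukocyte surface protein) were sorted, and single cells were captured in droplets for 3′ RNA sequencing with version 3 10x Genomics chemistry. AKK mice received Akkermansia muciniphila, a mucin-degrading gut bacterium, by mouth at 5e9 colony-forming units (CFU), and PBS mice received phosphate-buffered saline. All mice of both groups ate the MCD diet, which produces fatty liver, and carried luciferase-labelled RIL-175 hepatocellular carcinoma cells implanted in the liver. RIL-175 is a single transplanted mouse line. Feeding of the bacterium or saline started 2 weeks ahead of the diet, implantation followed 2 weeks of diet, and feeding of the bacterium paused for 6 days after surgery and then went on to the end. The comparison addresses how the bacterium bears on innate immunity in the tumour. Each group was 1 library, and the sources used here do not say how many mice it came from. No difference between groups could therefore be tested: "higher" and "lower" describe these libraries, every bracketed range is a 95% interval for counting error only, and none includes the spread between animals.

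CSF1 (M-CSF) signals through the receptor tyrosine kinase CSF1R and maintains monocytes and macrophages. CSF3 (G-CSF) acts through CSF3R and drives the production and release of neutrophils, whereas CSF2 (GM-CSF) binds the CSF2RA chain, which signals with the CSF2RB chain shared with the IL-3 and IL-5 receptors. FLT3L acts through FLT3, a receptor of early progenitors and of dendritic cells (DCs), and sustains DC production.

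The promoters of 4 members with different cell patterns are shown, from 250 bases before to 50 bases after the RefSeq start site on GRCm38.p6. Csf1 lies on chr3:107760420-107760719 (minus strand), Csf2ra on chr19:61228369-61228668 (minus), Csf3r on chr4:126024409-126024708 (plus) and Flt3 on chr5:147400440-147400739 (minus). Each is written 5′ to 3′ on the strand of the gene, and capitals mark matches to the 5 motifs named after the sequences.
Csf1: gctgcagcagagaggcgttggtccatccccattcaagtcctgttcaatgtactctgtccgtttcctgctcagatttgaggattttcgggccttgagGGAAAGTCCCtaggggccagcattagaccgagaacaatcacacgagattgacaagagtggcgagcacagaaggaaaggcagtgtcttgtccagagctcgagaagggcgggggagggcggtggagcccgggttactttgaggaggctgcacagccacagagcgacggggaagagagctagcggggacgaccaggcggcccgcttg
Csf2ra: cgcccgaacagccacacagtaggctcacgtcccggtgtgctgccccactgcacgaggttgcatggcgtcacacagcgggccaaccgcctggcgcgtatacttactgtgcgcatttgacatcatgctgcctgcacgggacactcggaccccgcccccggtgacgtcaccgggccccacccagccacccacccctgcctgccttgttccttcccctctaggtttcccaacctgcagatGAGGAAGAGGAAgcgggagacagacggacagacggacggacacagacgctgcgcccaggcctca
Csf3r: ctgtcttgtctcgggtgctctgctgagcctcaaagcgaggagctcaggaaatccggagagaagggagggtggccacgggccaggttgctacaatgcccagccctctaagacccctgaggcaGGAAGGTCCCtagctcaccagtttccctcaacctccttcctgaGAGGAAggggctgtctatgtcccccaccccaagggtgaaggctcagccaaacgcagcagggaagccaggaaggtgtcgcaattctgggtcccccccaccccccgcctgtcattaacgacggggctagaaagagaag
Flt3: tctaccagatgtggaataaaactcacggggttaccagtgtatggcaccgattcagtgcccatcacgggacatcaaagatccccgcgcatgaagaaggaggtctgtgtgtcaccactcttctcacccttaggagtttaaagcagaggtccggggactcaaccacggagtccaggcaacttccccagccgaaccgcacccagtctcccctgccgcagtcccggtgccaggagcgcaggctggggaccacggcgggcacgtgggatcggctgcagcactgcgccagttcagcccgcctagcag
The motifs were searched on both strands. GAGGAA, a core sequence bound by ETS factors such as PU.1, was found in 28.3% of the 32851 RefSeq promoter windows of the same length. Csf2ra held 2 adjoining copies of it, whose first bases lie at -14 and -8 from the start site, and Csf3r held 1 copy at -86. The NF-kB motif, read as GGGA, any 2 bases and then TTCC, was found in 1.47% of windows. Csf1 held it on the opposite strand at -154 (GGAAAGTCCC) and Csf3r at -129 (GGAAGGTCCC). Neither of the remaining motifs that mark common start-site elements, TATAAA (13.6% of windows) and CCAAT (37.4%), nor the AP-1 sequence TGANTCA (7.81%), was found in these 4 windows, and Flt3 held none of the 5. A match is a string of letters and not evidence of binding.

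The AKK library held 6610 barcodes and 74495998 UMIs (unique molecular identifiers, counts of transcript molecules), and the PBS library 5088 barcodes and 64731604 UMIs. After filtering, 6177 AKK and 4646 PBS cells were kept, with medians of 6347 and 6743 UMIs, and 8 barcodes occurred in both libraries. Clusters were named from marker sets, and 30 of 33 clusters received a name, giving 17 classes, whose names end in "-like". The 3 unnamed clusters held shallow barcodes, 45 in AKK and 172 in PBS, with medians of 711 and 689 UMIs. Ptprc, which encodes CD45, had a UMI in 93.9% of AKK and 91.4% of PBS cells. It was also present in 70.5% of AKK and 64.7% of PBS tumour/epithelial-like cells, a class whose markers Epcam and Cldn4 were each below 20% of cells and whose median depth was 76303 and 73738 UMIs per cell. Levels are counts per 1e6 UMIs of the class total (CPM), and transcript length does not enter them because the libraries read the 3′ end.

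**Figure D1:**
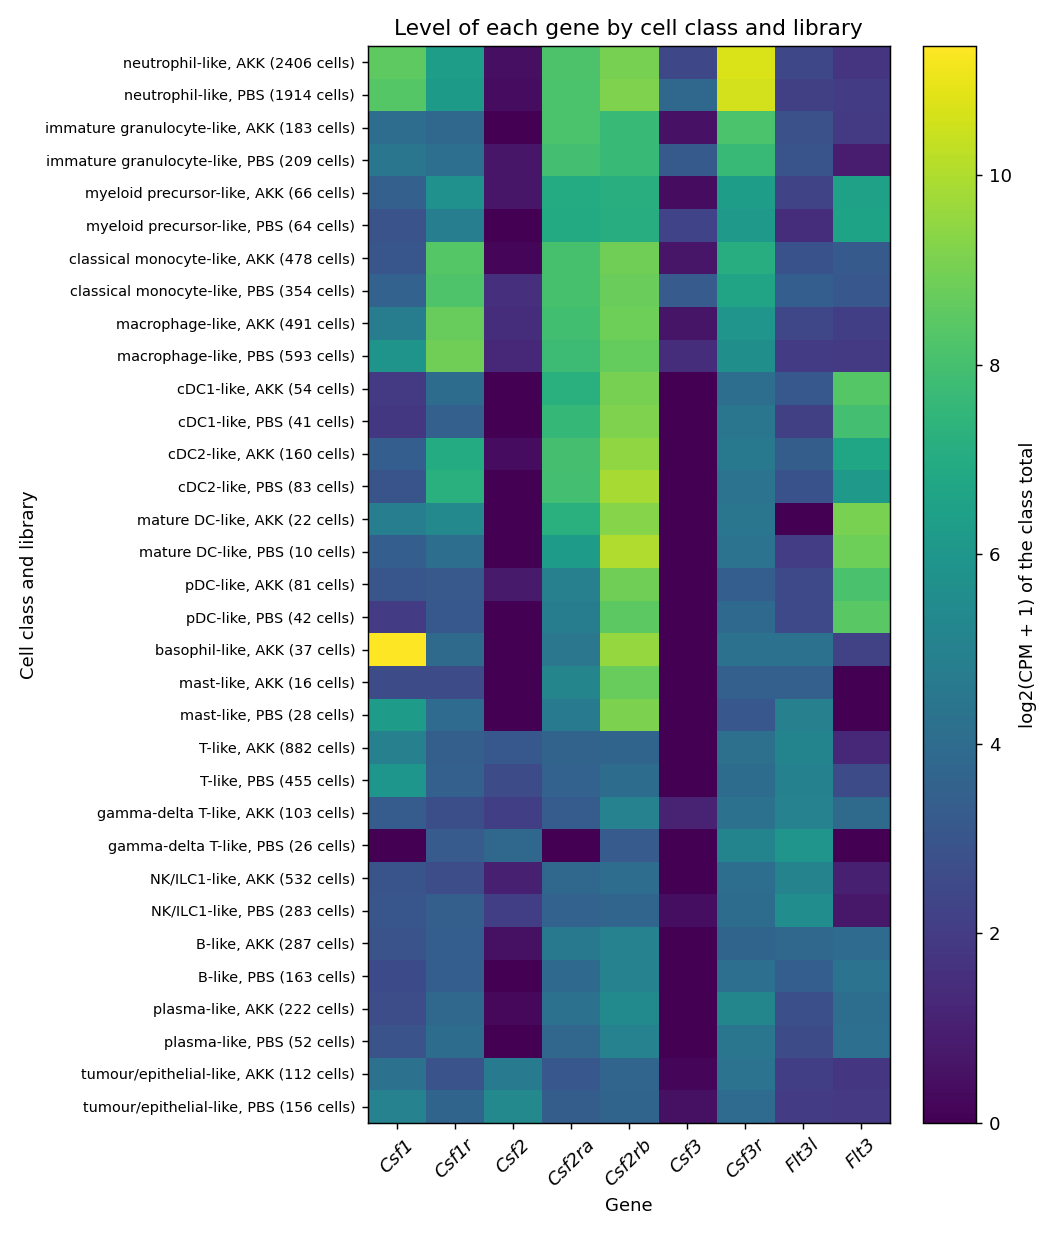
Level of the 9 genes, as log2(CPM + 1) of the class total, in each cell class (rows, AKK above PBS, classes with at least 10 cells in a library) and gene (columns). Csf3r was brightest in neutrophil-like cells (1702 CPM in AKK and 1549 CPM in PBS), Csf1r in macrophage-like cells (416 and 481 CPM) and Flt3 in the DC classes, while Csf2 and Csf3 were dark in most rows.

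Among the sorted CD45+ cells, which do not stand for the whole tumour, Csf1 (ENSMUSG00000014599, chromosome 3, 107741048 to 107760469, minus strand) was mainly a transcript of granulocytes. Neutrophil-like cells held 70.4% of its UMIs in the AKK library and 67.6% in the PBS library. Its level there was 377 CPM in AKK (365 to 389) and 332 CPM in PBS (320 to 343), and 43.9% of AKK and 42.4% of PBS neutrophil-like cells had a UMI. Thinned to 2276 UMIs per cell, these shares were 35.6% and 32.2%, against 1.47% and 1.31% in B-like cells thinned alike. The highest level of all was in AKK basophil-like cells, at 2637 CPM (2451 to 2834): 740 UMIs in 34 of 37 cells, or 13.6% of the Csf1 UMIs of the library. The PBS library had 1 basophil-like cell, with 6 Csf1 UMIs, so basophils cannot be compared. Mast-like cells had 1 UMI in 16 AKK cells and 21 UMIs in 28 PBS cells (5.02 and 77.7 CPM). Mature DC-like cells had 28.5 CPM in AKK and 9.65 CPM in PBS, from 22 and 10 cells. These levels rest on 8 UMIs in 2 AKK cells, 7 of them in 1 cell, and on 3 UMIs in 2 PBS cells. Among the classes of 100 or more cells per library, the order then ran to T-like cells (29.9 CPM in AKK, 61.7 CPM in PBS) and macrophage-like cells (27.4 and 57.9 CPM), neighbours whose intervals overlapped in each library, and to tumour/epithelial-like cells (18.6 and 32.1 CPM). NK/ILC1-like, B-like, plasma-like and cDC1-like cells (type 1 conventional DCs) stood below 8 CPM in both libraries.

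Within the granulocytes, Csf1 and the G-CSF receptor ran in different orders. The cluster led by S100a9, Retnlg and Hdc had the highest Csf3r level (2290 CPM in AKK and 2138 CPM in PBS) and the lowest Csf1 level of the 5 neutrophil-like clusters (130 and 61.4 CPM). The cluster led by Hdc, Acod1 and Clec4n had the highest Csf1 level, 675 CPM in AKK and 708 CPM in PBS, with Csf3r at 1295 and 1284 CPM. The cluster led by Cxcl3, Cstdc4 and Hcar2 had the lowest Csf3r level, 684 CPM in AKK and 852 CPM in PBS, with Csf1 at 411 and 316 CPM. In immature granulocyte-like cells, which carry secondary granule genes, Csf1 was at 15.7 CPM in AKK and 21.3 CPM in PBS.

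**Figure D2:**
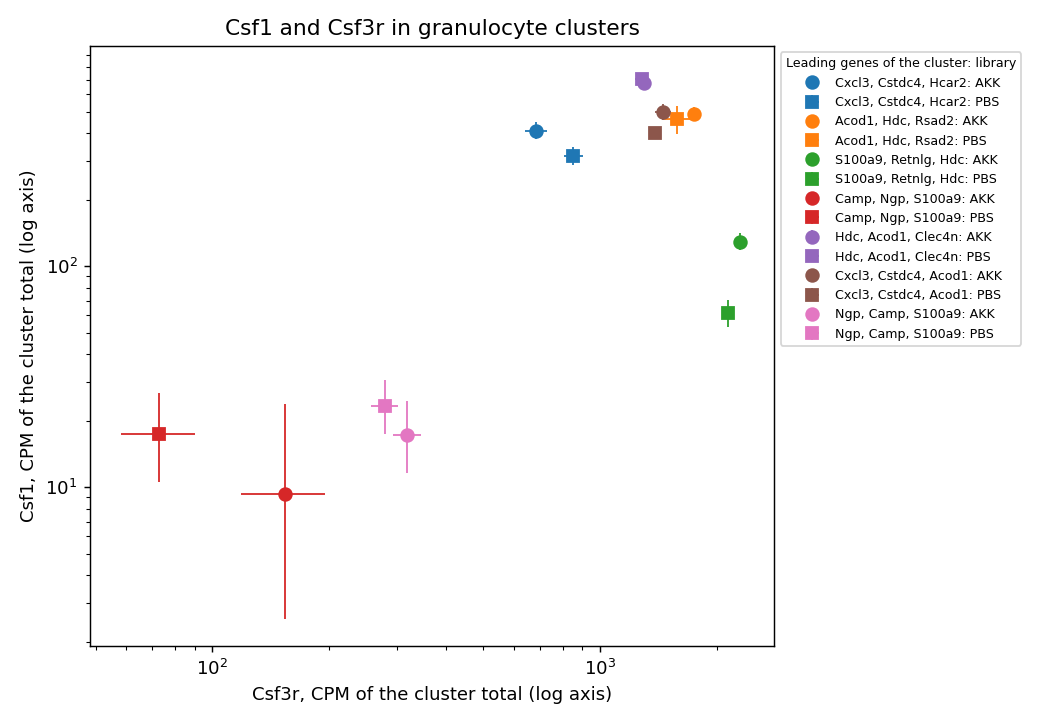
Csf3r level (x axis) against Csf1 level (y axis), both in CPM of the cluster total on log axes, in each granulocyte cluster with at least 10 cells in each library. Circles are AKK and squares PBS, colours are clusters named by leading genes, and bars are exact Poisson 95% intervals. The green S100a9-led cluster has the most Csf3r and less Csf1 than the other 4 neutrophil-like clusters, and its AKK circle (130 CPM) lies above its PBS square (61.4 CPM).

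Csf1 differed between the libraries in a different direction in different cells. In neutrophil-like cells the AKK over PBS ratio was 1.14 (1.08 to 1.19). It was 2.11 (1.79 to 2.50) in the S100a9-led cluster, with 509 UMIs in AKK and 201 in PBS. In the cluster led by Cxcl3, Cstdc4 and Hcar2 it was 1.30 (1.15 to 1.48), and in the Clec4n cluster 0.953 (0.882 to 1.03). The cluster led by Cxcl3, Cstdc4 and Acod1 had a ratio of 1.25 (1.13 to 1.38). The cluster led by Acod1, Hdc and Rsad2 had a ratio of 1.06 (0.905 to 1.25). That cluster was 412 of 2406 AKK and 91 of 1914 PBS neutrophil-like cells. Macrophage-like cells had 199 Csf1 UMIs in 100 AKK cells and 632 in 167 PBS cells, a ratio of 0.474 (0.402 to 0.557). A single PBS cell held 69 of those UMIs, and without the top cell of each library the ratio was 0.496. The 9 neutrophil markers summed to 2854 CPM in AKK and 2626 CPM in PBS macrophage-like cells, none at 0. T-like cells had 258 UMIs in AKK and 281 in PBS, a ratio of 0.485 (0.408 to 0.576). Most of them lay in the cluster led by Themis, Camk4 and Tox, at 73.1 CPM in AKK and 126 CPM in PBS, which held 201 of 882 AKK and 174 of 455 PBS T-like cells. With the 3 T-like clusters weighted alike in both libraries the ratio was 0.678, short of 1.5-fold. The 9 neutrophil markers summed to 652 CPM in AKK and 1137 CPM in PBS T-like cells, none at 0, and their part in the Csf1 ratio was not tested. In the T-like cluster led by Camk4, Ikzf2 and Rora, in which 80.7% of cells had a Foxp3 UMI, the ratio was 1.77 (0.999 to 3.33). Without removal of doublets, fewer cells were named T-like and the T-like Csf1 ratio was 2.06, so its direction depended on that step.

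Csf2 (ENSMUSG00000018916, chromosome 11, 54247271 to 54249667, minus strand), the GM-CSF gene, was found in few cells. Of its 309 AKK and 517 PBS UMIs, 67.6% and 86.9% lay in tumour/epithelial-like cells, where 31 of 112 AKK cells and 60 of 156 PBS cells had a UMI. The level there was 25.1 CPM in AKK (21.8 to 28.7) and 39.6 CPM in PBS (36.1 to 43.5), a ratio of 0.632 (0.534 to 0.747), and 0.507 without the top cell of each library, which held 61 UMIs in AKK and 40 in PBS. These cells were far deeper than the others, and their shares with a UMI cannot be set beside those of shallower classes. The macrophage and neutrophil markers summed to 256 and 838 CPM in AKK and 326 and 999.6 CPM in PBS tumour/epithelial-like cells. In T-like cells these sums were 67.0 and 652 CPM in AKK and 153 and 1137 CPM in PBS. The T markers summed to 22.3 CPM in AKK and 15.1 CPM in PBS tumour/epithelial-like cells. The part of RNA from other cells in the Csf2 counts was not tested. T-like cells came next in Csf2, with 67 UMIs in 20 AKK cells and 24 UMIs in 11 PBS cells (7.76 and 5.27 CPM), and 1 AKK cell held 25 of the 67. In the Tox-led T-like cluster the level was 21.6 CPM in AKK and 10.6 CPM in PBS, from 51 and 21 UMIs. The AKK cell with 25 UMIs lay in this cluster, so its AKK level rests largely on that cell. Without the top cell of each library, all T-like cells had 4.87 CPM in AKK and 3.74 CPM in PBS, a ratio of 1.30 (0.726 to 2.44). Neutrophil-like cells had 4 and 3 Csf2 UMIs in 2406 AKK and 1914 PBS cells.

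Csf3 (ENSMUSG00000038067, chromosome 11, 98701263 to 98703629, plus strand), the G-CSF gene, was rare and was lower in AKK in each myeloid class compared. The whole AKK library held 58 UMIs in 33 cells and the PBS library 239 UMIs in 115 cells, a ratio of 0.216 (0.159 to 0.289). Neutrophil-like cells had 46 UMIs in 23 AKK cells and 123 UMIs in 52 PBS cells, at 4.53 CPM (3.32 to 6.05) and 12.7 CPM (10.6 to 15.2), a ratio of 0.357 (0.249 to 0.505). The clusters were not alike, and their shares of the class differed between the libraries. With the clusters weighted alike the ratio was 0.380. In the S100a9-led cluster the counts were 28 in AKK and 29 in PBS, a ratio of 0.804 (0.461 to 1.40). In the cluster led by Cxcl3, Cstdc4 and Acod1, which was 301 of 2406 AKK and 536 of 1914 PBS neutrophil-like cells, they were 6 and 61, a ratio of 0.218 (0.0769 to 0.502). Classical monocyte-like cells had 4 UMIs in 2 AKK cells and 49 UMIs in 28 PBS cells (0.599 and 8.47 CPM, ratio 0.0708, 0.0185 to 0.193). The 9 neutrophil markers, none of which was at 0, summed to 3072 CPM in AKK and 9287 CPM in PBS monocyte-like cells, and their part in the Csf3 ratio was not tested. Immature granulocyte-like cells had 1 AKK and 28 PBS UMIs, a ratio of 0.0556 (0.00136 to 0.336), and macrophage-like cells had 4 and 20, a ratio of 0.301 (0.0749 to 0.899). T-like and B-like cells had no Csf3 UMI in either library. In T-like cells, 3 UMIs would be 0.347 CPM in AKK and 0.658 CPM in PBS.

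Flt3l (ENSMUSG00000110206, chromosome 7, 45129788 to 45136432, minus strand) was mainly a lymphocyte transcript among the sorted cells. T-like cells held 37.4% of its 778 AKK UMIs and 26.6% of its 531 PBS UMIs, and NK/ILC1-like cells 21.5% and 26.6%. Its level was 33.7 CPM in AKK and 30.9 CPM in PBS T-like cells, a ratio of 1.09 (0.888 to 1.34). NK/ILC1-like cells had 33.1 and 46.9 CPM, a ratio of 0.705 (0.560 to 0.888). The cluster led by Gzma had 28.9 CPM in AKK and 47.7 CPM in PBS, a ratio of 0.606 (0.441 to 0.837), whereas the cluster led by Klrb1b had 41.0 and 46.1 CPM with overlapping intervals. The Klrb1b-led cluster was 159 of 532 AKK and 134 of 283 PBS NK/ILC1-like cells. Gamma-delta T-like cells had 32.2 CPM in AKK (21.6 to 46.3) and 59.9 CPM in PBS (32.7 to 100.4), from 103 and 26 cells. Neutrophil-like cells had 4.53 and 3.41 CPM. At 4848 UMIs per cell, 14.1% of AKK and 18.3% of PBS NK/ILC1-like cells had a UMI, against 2.02% and 0.861% of neutrophil-like cells.

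**Figure D3:**
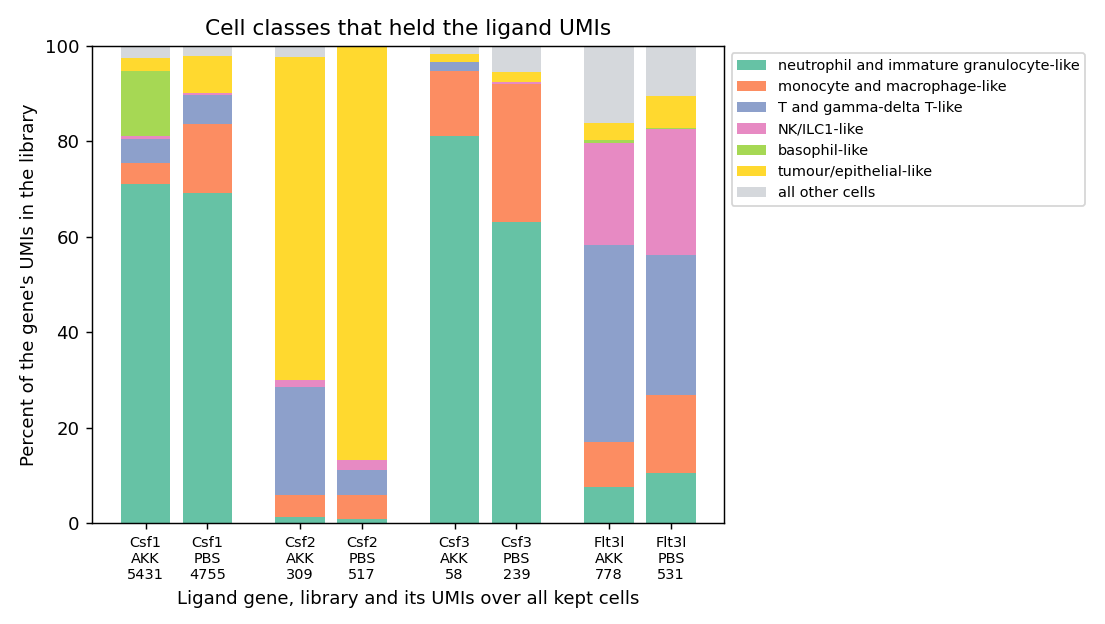
Share of the UMIs of each ligand (y axis, percent) that lay in each group of cell classes, for the AKK (left) and PBS (right) library of each gene, with the UMIs over all kept cells under each bar. Csf1 and Csf3 lay mostly in neutrophil-like and immature granulocyte-like cells, Csf2 in tumour/epithelial-like cells (67.6% in AKK, 86.9% in PBS) and Flt3l in lymphocytes, and the basophil-like share of Csf1 (13.6%) appears in AKK.

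Among the receptors, Csf1r (ENSMUSG00000024621, chromosome 18, 61100598 to 61132149, plus strand) marked the mononuclear phagocytes. Macrophage-like cells had 416 CPM in AKK (401 to 431) and 481 CPM in PBS (468 to 494), a ratio of 0.865 (0.827 to 0.905). Classical monocyte-like cells had 331 and 296 CPM, a ratio of 1.12 (1.05 to 1.19). A UMI was found in 83.7% of AKK and 89.2% of PBS macrophage-like cells, and in 86.8% and 90.4% of monocyte-like cells. After these came cDC2-like cells (127 and 146 CPM, overlapping intervals) and neutrophil-like cells (78.4 and 71.8 CPM, overlapping intervals). In neutrophil-like cells thinned to 2276 UMIs, 14.4% of AKK and 13.9% of PBS cells had a Csf1r UMI, against 2.58% and 3.50% of T-like cells. Over the whole library Csf1r was at 104 CPM in AKK and 141 CPM in PBS, a ratio of 0.738 (0.715 to 0.762), beside shares of macrophage-like cells of 7.95% and 12.8%. NK/ILC1-like cells had 27 UMIs in AKK and 30 in PBS, and at 4848 UMIs per cell their shares were 2.52% in AKK and 4.67% in PBS, against 5.22% and 4.47% of T-like cells. The 9 macrophage markers summed to 68.1 and 147 CPM in those NK/ILC1-like cells, and their part in the Csf1r ratio of 0.536 (0.306 to 0.932) was not tested. Without removal of doublets that ratio was 0.968.

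Csf2ra (ENSMUSG00000059326, chromosome 19, 61223957 to 61228429, minus strand), the GM-CSF binding chain, was similar in the granulocyte, monocyte and macrophage classes. Its level was 294 CPM in AKK and 286 CPM in PBS neutrophil-like cells, 283 and 247 CPM in immature granulocyte-like cells, 268 and 266 CPM in classical monocyte-like cells and 241 and 222 CPM in macrophage-like cells. The AKK over PBS ratio of these 4 classes lay between 1.009 and 1.15. The intervals of the immature granulocyte-like (1.03 to 1.28) and macrophage-like ratio (1.02 to 1.15) did not include 1. One cluster departed from this: the neutrophil-like cluster led by Cxcl3, Cstdc4 and Hcar2 had 175 CPM in AKK and 280 CPM in PBS, a ratio of 0.623 (0.527 to 0.735). In cDC1-like cells Csf2ra was at 149 and 187 CPM, and in pDC-like cells at 30.2 and 26.1 CPM. Myeloid precursor-like cells had 128 and 121 CPM, mast-like cells 35.1 and 25.9 CPM, and AKK basophil-like cells 21.4 CPM.

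Csf2rb (ENSMUSG00000071713, chromosome 15, 78325752 to 78353847, plus strand), the shared signalling chain, was highest in cDC2-like, mature DC-like and AKK basophil-like cells. It was at 716 CPM in AKK and 944 CPM in PBS cDC2-like cells, 631 and 1039 CPM in mature DC-like cells (22 and 10 cells) and 748 CPM in AKK basophil-like cells. In cDC1-like cells it was at 523 and 575 CPM, beside the neutrophil-like level. Mast-like cells had 416 CPM in AKK (332 to 516) and 551 CPM in PBS (466 to 647). Neutrophil-like cells had 524 and 580 CPM, a ratio of 0.904 (0.871 to 0.939), and macrophage-like cells 468 and 407 CPM, a ratio of 1.15 (1.10 to 1.20). Unlike Csf2ra, it was also high in pDC-like cells (478 and 358 CPM, a plasmacytoid DC class), beside monocyte-like cells at 477 and 434 CPM. Both chains had a UMI in the same cell in 45.8% of AKK and 53.1% of PBS neutrophil-like cells, in 81.3% and 84.3% of cDC2-like cells, but in 28.4% and 31.0% of pDC-like cells and 10.8% of AKK basophil-like cells. Csf2rb has a neighbouring near copy, Csf2rb2, the mouse-specific IL-3 receptor chain. Their transcripts were 93.6% identical over 4548 aligned bases, and 8.05% of the 91-base windows of Csf2rb also occurred in Csf2rb2, but none in the last 500 bases, where 3′ libraries read most. Levels of the pair are uncertain to the extent that reads were split between them. Csf2rb2 was highest in pDC-like cells (302 CPM in AKK and 256 CPM in PBS) and mast-like cells (261 and 315 CPM).

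Csf3r (ENSMUSG00000028859, chromosome 4, 126024550 to 126044440, plus strand) had the most UMIs of the members in AKK, 20242 against 17646 for Csf2rb. In PBS the 2 were alike, at 17514 and 17431 UMIs. Csf2rb had a UMI in more cells of both libraries. Neutrophil-like cells held 85.3% of the Csf3r UMIs in AKK and 85.7% in PBS, with 17264 UMIs in 2225 AKK cells and 15006 UMIs in 1779 PBS cells. The levels, 1702 CPM (1677 to 1727) and 1549 CPM (1524 to 1574), gave a ratio of 1.10 (1.07 to 1.12), which was 1.04 with the clusters weighted alike. Immature granulocyte-like cells had 286 CPM in AKK and 208 CPM in PBS, a ratio of 1.37 (1.23 to 1.53). In its larger cluster, led by Ngp and Camp, the levels were 318 and 278 CPM, a ratio of 1.14 (1.02 to 1.28). Classical monocyte-like cells had 134 and 99.1 CPM, a ratio of 1.35, whose interval began at 1.21. Macrophage-like cells had 60.1 and 50.1 CPM. The neutrophil markers summed to 3072 CPM in AKK and 9287 CPM in PBS monocyte-like cells, and their part in the Csf3r ratio was not tested. T-like cells had 17.4 and 15.1 CPM, and 1 AKK cell held 13 of their 150 AKK UMIs.

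Flt3 (ENSMUSG00000042817, chromosome 5, 147330741 to 147400489, minus strand) marked the DCs and a part of the precursors. Its level was 538 CPM in AKK (456 to 631) and 463 CPM in PBS (391 to 545) mature DC-like cells, 328 and 251 CPM in cDC1-like cells, 272 and 351 CPM in pDC-like cells and 101 and 69.0 CPM in cDC2-like cells. The direction thus differed between classes: the ratio was 1.31 (1.13 to 1.52) in cDC1-like and 0.775 (0.654 to 0.920) in pDC-like cells, from 54 and 41 and from 81 and 42 cells. A difference between these ratios was not tested. Among cDC2-like cells the Plet1-led cluster had 30.5 CPM in AKK and 47.4 CPM in PBS, whereas the Cd209a-led cluster had 150 and 105 CPM with overlapping intervals, and a small cluster led by Pkib and Gria3 (24 and 4 cells) had 356 and 381 CPM. The Plet1-led cluster was 75 of 160 AKK and 59 of 83 PBS cDC2-like cells. Myeloid precursor-like cells had 90.5 and 96.2 CPM. Most of it, 242 of 289 AKK and 268 of 324 PBS UMIs, lay in the cluster led by 2610307P16Rik, Adgrl4 and Ighg3, at 347 CPM in AKK (305 to 393) and 343 CPM in PBS (303 to 386), whereas the cluster led by Prtn3 and Mpo, genes of primary granules, had 26.8 and 42.7 CPM. In T-like cells 18 of the 23 PBS Flt3 UMIs came from 1 cell, and without the top cell of each library fewer than 20 UMIs were left. B-like cells had 14.5 and 19.4 CPM, with overlapping intervals.

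A ratio past 1.5-fold in either direction, with at least 20 UMIs over both libraries, was counted in each class with at least 100 cells per library. The median log2 ratio of all genes lay between -0.0485 and 0.08 in the 8 classes. In neutrophil-like cells 1 of 8 measured members was past the limit, Csf3, which was lower in AKK, beside 7.16% of all genes lower, 11.7% higher and 18.9% in either direction. Immature granulocyte-like cells had 1 of 7 lower, again Csf3, beside 16.5% of all genes lower, 8.27% higher and 24.7% in either direction. Classical monocyte-like cells had 3 of 8 lower, Csf3, Csf1 and Flt3l, beside 10.9% of all genes lower, 12.8% higher and 23.6% in either direction. Csf1 (7.19 CPM in AKK and 10.9 CPM in PBS, ratio 0.660, 0.444 to 0.977) was 0.783 without the top cell of each library and 1.62 without removal of doublets. At 3660 UMIs per cell, 2.63% of AKK and 4.24% of PBS monocyte-like cells had a Csf1 UMI, against 2.33% and 2.04% of B-like cells. The 9 neutrophil markers summed to 3072 CPM in AKK and 9287 CPM in PBS monocyte-like cells. Their part in the Csf1 ratio was not tested. Flt3l (ratio 0.662, 0.432 to 1.01) had an interval that included 1. It stayed past 1.5-fold in 3 of 11 alternatives, 1 of which (no minimum UMI sum) leaves every ratio unchanged. In macrophage-like cells 2 of 9 were lower, Csf1 and Csf3, beside 10.1% of all genes, and 1 was higher, Flt3l, beside 11.1% (21.2% in either direction). Flt3l had 32 UMIs in each library (ratio 1.51, 0.893 to 2.54). T-like cells had 2 of 8 lower, Csf1 and Flt3, beside 10.0% of all genes lower, 6.34% higher and 16.4% in either direction. NK/ILC1-like cells had 1 of 6 lower, Csf1r (0.968 without removal of doublets), beside 9.93% of all genes lower, 8.03% higher and 18.0% in either direction. B-like cells had 1 of 7 higher, Csf2ra (ratio 1.67, 0.982 to 2.94), beside 10.9% of all genes higher, 6.97% lower and 17.9% in either direction. Tumour/epithelial-like cells had 3 of 8 lower, Csf1 (0.578, 0.476 to 0.700), Csf1r (0.557, 0.400 to 0.768) and Csf2, beside 6.26% of all genes lower, 9.71% higher and 16.0% in either direction. The 9 macrophage markers summed to 256 CPM in AKK and 326 CPM in PBS tumour/epithelial-like cells, and their part in the Csf1r ratio was not tested. The markers of other classes allowed up to 4.987 CPM of Csf1r from other cells in AKK and 5.505 CPM in PBS. The lower bound of the Csf1r level was under that limit in AKK (4.967 CPM) and above it in PBS (9.91 CPM). The receptors Csf2ra, Csf2rb and Csf3r were within 1.5-fold in each of the 4 granulocyte, monocyte and macrophage classes.

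**Figure D4:**
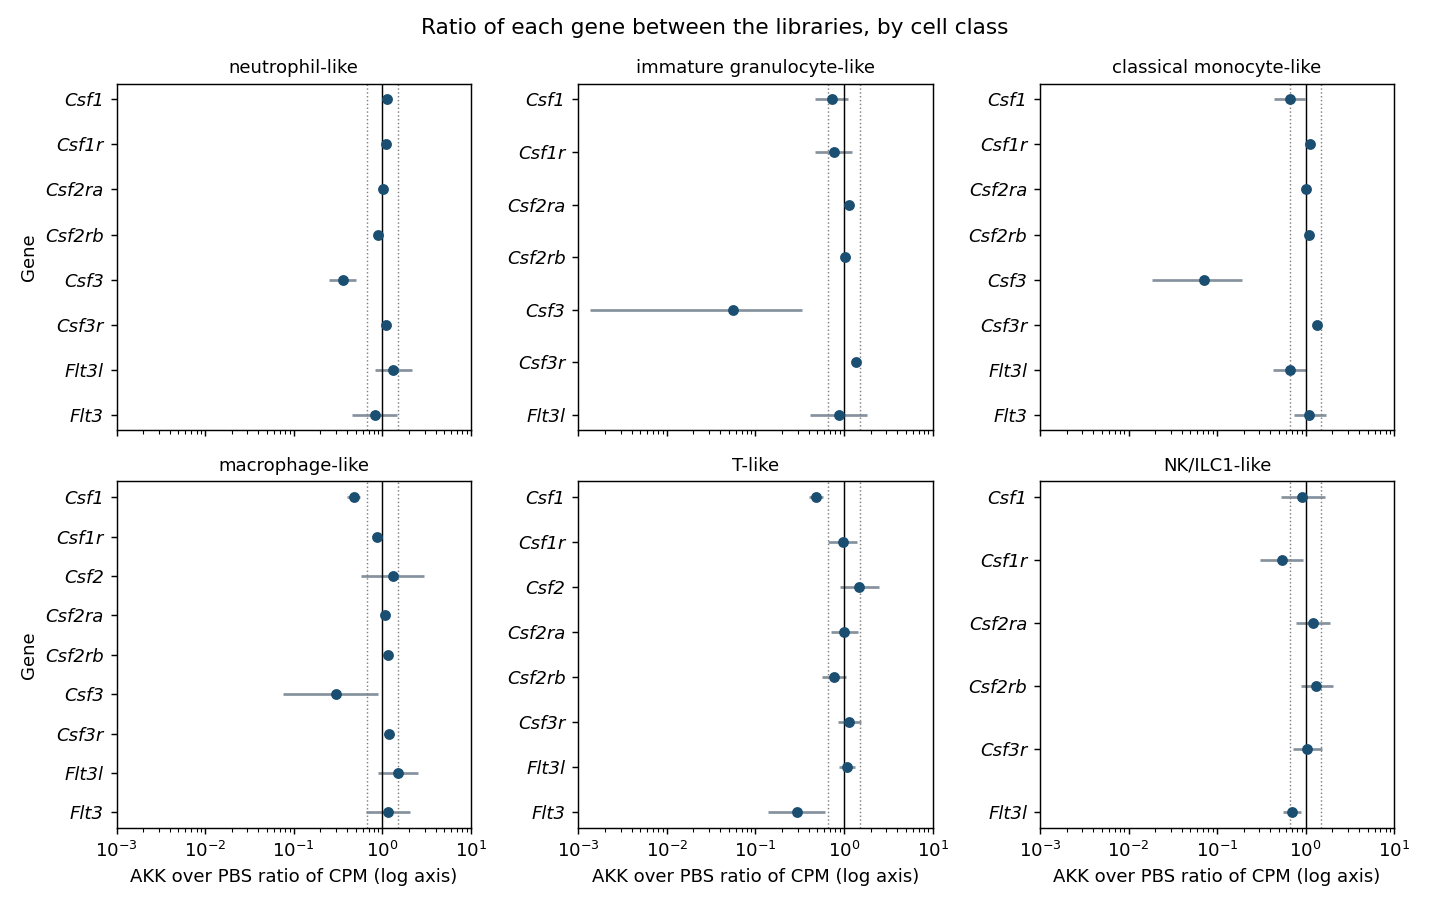
AKK over PBS ratio of CPM (log axis) of each member with at least 20 UMIs over both libraries, in 6 cell classes. Points are ratios, bars are exact conditional 95% intervals for counting error, the solid line is 1 and dotted lines are 1.5-fold. Csf3 lies left of the dotted line in each of the 4 myeloid classes, Csf1 in the classical monocyte-like, macrophage-like and T-like panels.

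Of 47 related genes of these pathways (other ligands and receptors, kinases, signal transducers, feedback genes and myeloid transcription factors), 44 were measured in neutrophil-like cells, where 2 were higher and 5 lower, beside 11.7% and 7.16% of all genes. Their median log2 ratio was -0.0577, against 0.0463 for all genes. Irf8, a factor of the monocyte and DC lineages, was at 20.8 CPM in AKK and 9.60 CPM in PBS (ratio 2.17, 1.69 to 2.80). The T markers summed to 48.6 CPM in AKK and 25.3 CPM in PBS neutrophil-like cells. NK/ILC1-like cells had Irf8 at 909 CPM in AKK and 687 CPM in PBS. The part of RNA from other cells in the Irf8 ratio was not tested. Ptpn6, a phosphatase that dampens cytokine signalling, was at 204 and 136 CPM, just short of the limit. Among the genes past the limit that were lower in AKK were the cytokine-induced inhibitor Socs2 (0.595, 0.373 to 0.936) and Myc (0.646, 0.363 to 1.13).

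In classical monocyte-like cells 41 of the 47 were measured, with 6 higher and 4 lower beside 12.8% and 10.9% of all genes, and a median of 0.189 against 0.0723. Irf8 was at 207 CPM in AKK and 107 CPM in PBS (ratio 1.94, 1.76 to 2.13) and the phosphoinositide kinase gene Pik3cd at 154 and 80.6 CPM (1.91, 1.71 to 2.13). The T markers summed to 30.7 CPM in AKK and 16.9 CPM in PBS monocyte-like cells. Their part in the Irf8 and Pik3cd ratios was not tested. Socs2 (0.397, 0.294 to 0.530), the granulocyte factor Cebpe (0.399, 0.248 to 0.629) and Myc (0.553, 0.393 to 0.773) were lowest. Macrophage-like cells had 3 higher and 1 lower of 44, beside 11.1% and 10.1%, with medians of -0.0022 and 0.08. Socs3, the feedback inhibitor of the G-CSF receptor, was at 190 CPM in AKK and 339 CPM in PBS (0.560, 0.526 to 0.596), and Kit, the stem cell factor receptor, at 12.5 and 4.67 CPM (2.69, 1.89 to 3.86). The markers of other classes allowed up to 3.61 CPM of Kit from other cells in PBS macrophage-like cells. The lower bound of the PBS Kit level, 3.48 CPM, was under that limit. In AKK, 1 cell held 13 of the 91 Kit UMIs. The part of RNA from other cells in the Kit ratio was not tested. Immature granulocyte-like cells had 4 higher and 6 lower of 40 (8.27% and 16.5% of all genes). Irf8 (2.34, with a lower bound of 1.39) and the kinase gene Jak1 (1.52, 1.36 to 1.69) were among those higher there. In these cells the T markers summed to 53.4 CPM in AKK and 19.8 CPM in PBS. Their part in the Irf8 ratio was not tested. T-like cells had 1 higher and 2 lower of 40 (6.34% and 10.0%), with Kit at 21.3 CPM in AKK and 56.2 CPM in PBS (0.379, 0.312 to 0.460), and NK/ILC1-like cells 2 higher and 4 lower of 39 (8.03% and 9.93%), with Cish, an inhibitor induced by STAT5, at 107 and 173 CPM (0.620, 0.549 to 0.701). The T-like and NK/ILC1-like clusters differed in share between the libraries, and the part of that in these ratios was not tested.

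The genes whose level across 31 class-by-library profiles of 17 classes was most like that of each receptor were, by Pearson's r of log2(CPM + 10), Ms4a6d (0.94), Adap2os and Cd302 for Csf1r, and Gm13986 (0.95), Arg2 and Retn for Csf3r. For Csf2ra they were Gm34084 (0.95) and Spi1 (0.95), for Csf2rb Cd300a (0.92), Gab2 (0.91) and I830077J02Rik, and for Flt3 Syngr2 (0.88), Nckipsd and Pkib. The profiles share 2 libraries and differ in depth, so these values are descriptions.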

How the data were processed

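The deposited matrices hold raw UMI counts per gene and barcode, with no normalization by the authors. Cell Ranger 7.1.0 wrote them, per the file headers. Cell Ranger 5.0.1 and mm10 are named per the submitters' processing notes. Neither source gives the intron or strand setting. Features and barcodes were used as deposited, and 32235 gene IDs (99.8%) were found in GENCODE M21 on GRCm38, the assembly of mm10. Csf1r, Csf2 and Flt3 each overlap 1 counted gene on the opposite strand.

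The 9 members and all lists were chosen with earlier results of these data known. Barcodes with at least 200 genes and under 15% mitochondrial UMIs were kept. Doublets with the highest Scrublet scores were removed at 0.8% per 1000 barcodes, 340 in AKK and 187 in PBS. Cells were clustered with scanpy 1.11.5 (2000 variable genes without the members, 30 components, 15 neighbours, Leiden resolution 1.0). Clusters were named by the mean log2 ratio of (CPM + 10) over 24 of 25 marker sets, with a score of at least 1.0 and at least 3 markers in 20% of cells. A set for ILC2 was dropped because clusters it scored held T cell genes, and a shallow cluster whose next set scored within 1.5 was left unnamed. Both choices, and the score settings, were made once the clusters and the members' values were known.

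UMIs were summed per class and library and scaled to CPM. Levels have exact Poisson intervals, shares Clopper-Pearson intervals and ratios exact conditional binomial intervals, all at 95%. The ratio intervals were tested on simulated independent Poisson counts, the setting for which they are exact. That check does not cover UMIs that gather in single cells, for which the intervals are too narrow. Shares were also taken after thinning each cell to the 10th percentile of UMIs of its class. The genes named are the 9 members and, of the related list, those with the 3 largest and 3 smallest ratios per class among genes with at least 50 UMIs. Some genes that this rule or the likeness ranking selects are not reported here. No test between groups was possible with 1 library each.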

Additional observations from a re-analysis of the deposited data

How the results depend on the processing

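Each library was 1 sample, so no library could be left out. No paired analysis was possible because each group has 1 library and the labels carry no replicate numbers. Alternatives were run for neutrophil-like, macrophage-like, monocyte-like, T-like and NK/ILC1-like cells, and not for immature granulocyte-like, B-like or tumour/epithelial-like cells. Of 418 ratios recomputed under 11 alternatives, 387 stayed within the counting interval of the reported ratio. With no minimum UMI sum, 1 of the 11, none of the 39 ratios compared can change, so these are among the 387 by design. The numbers of alternatives given for single ratios include it as well. The Csf3 ratio stayed past 1.5-fold under each alternative that gave one in 3 of these classes. It ranged from 0.313 to 0.380 over neutrophils, from 0.0202 to 0.105 over monocytes and from 0.245 to 0.414 over macrophages, where 7 alternatives gave a value. The Csf1 ratio in macrophage-like cells ranged from 0.366 to 0.597. The Flt3l ratio of 1.51 in macrophage-like cells ranged from 1.31 to 1.54.

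Without removal of doublets the Csf1 ratio was 2.06 in T-like and 1.62 in monocyte-like cells, where it had been below 1, and with each library clustered alone the Flt3l ratio in monocyte-like cells was 1.03. The Csf1r ratio in NK/ILC1-like cells was 0.968 without removal of doublets. The cause was not tested. In monocyte-like cells Csf1 stayed past 1.5-fold in 9 of 11 alternatives and Flt3l in 3 of 11, and the count ran from 2 to 4. Other counts of members past 1.5-fold moved further. At Leiden resolution 2.0 the macrophage-like count was 1. With classes from each cell's own marker score it was 3 for neutrophils, 1 for macrophages and 4 for T cells. Without removal of doublets the T-like count was 1, and without the top cell of each gene, an alternative chosen after seeing the data, it was also 1. With no minimum UMI sum the NK/ILC1-like count was 3. Weighting clusters alike was also chosen after seeing the data. At this depth a member with under 20 UMIs in a class was not compared, and Csf2 and Csf3 rest on few cells.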

Other observations

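Other ligands and receptors that share chains or cells with the 9 genes had their own cell patterns. Il34, the second ligand of CSF1R, was at 104 CPM in AKK (97.4 to 111) and 71.7 CPM in PBS (66.8 to 76.8) tumour/epithelial-like cells, a ratio of 1.45 (1.32 to 1.60), whereas Csf1 was lower in AKK in the same cells. Macrophage-like cells had 11 Il34 UMIs in AKK and 17 in PBS. Kitl, the stem cell factor gene, was at 353 CPM in AKK and 300.3 CPM in PBS tumour/epithelial-like cells. Its receptor Kit was at 923 and 1077 CPM in mast-like cells, with overlapping intervals, at 255 and 187 CPM in cDC1-like cells, and at 170 and 263 CPM in NK/ILC1-like cells, where 34.0% of AKK and 46.6% of PBS cells had a UMI. The NK/ILC1-like clusters differed in share between the libraries, and the part of that in the Kit levels was not tested. Il5ra, the IL-5 binding chain that pairs with CSF2RB, was at 54.7 and 65.7 CPM in B-like cells. It was also at 116 CPM in AKK and 114 CPM in PBS tumour/epithelial-like cells.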
